A study of Mus musculus with 12 samples.

Results

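The genes described here are 33 members of the unfolded protein response and its endoplasmic reticulum (ER) chaperones, taken by symbol from a table of 55291 gene symbols. They comprise 5 sensors and factors, 7 targets of ATF4 and CHOP, 7 targets of XBP1, 12 targets of ATF6 and 2 further chaperones of the lectin cycle. Many ATF6 targets also answer to XBP1, so the classes are working groups rather than exclusive assignments. All 33 had enough counts to be tested.

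Secreted proteins such as collagen fold in the ER, helped by chaperones that hold unfolded chains, by disulfide isomerases and by lectins that read their sugars. When unfolded chains build up, 3 membrane sensors signal to the nucleus. ERN1 (IRE1) splices the mRNA of Xbp1, ATF6 is cut to release a transcription factor, and EIF2AK3 (PERK) phosphorylates eIF2 alpha, which slows translation but favours that of ATF4 and its target CHOP (the product of Ddit3). Osteoblasts secrete much collagen, and these arms are known to be engaged as they mature.

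The RNA came from MC3T3-E1, a mouse preosteoblast line described as wild type, brought to bone differentiation from confluent culture. The IFN arm received interferon beta, given in the labels as 50 mg/L since differentiation, and the control arm did not. The 6 groups are IFN day 0, day 14 and day 21 and control day 0, day 14 and day 21, each of 2 libraries. The labels do not say whether the IFN day 0 libraries had been exposed, nor whether the replicates were separate cultures, so each p measures only the spread between these libraries, which may be technical.

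Library totals ran from 29772425 to 38908453 counts, and between 20974 and 23633 genes had at least 1 count. The interferon-induced gene Irf7 was at 719.9 and 742 CPM (the count scaled to the library's total times its TMM factor) in the IFN day 14 libraries, at 504 and 546 CPM in the IFN day 21 libraries, and between 2.70 and 13.7 CPM in the other 8, the IFN day 0 libraries among them. Runx2, a defining osteoblast factor, was at 71.9 to 126 CPM. Of 12 markers of macrophages, endothelium, epithelium, fat and muscle, 10 or 11 were under 1 CPM in each library, and their sum was 1.91 to 12.8 CPM, most of it Cd68. Control day 21 replicate 2 stands apart by the genes of this report and was left out of every fit unless stated. Control day 14 replicate 1 stands apart by hypoxia and glycolysis genes, with a median of 2.27 log2 units above the median of 11 libraries, and control day 0 replicate 1 departs from its partner in many members. The ribosomal RNA gene CT010467.1 was at 107 and 694 CPM in IFN day 0, 2862 and 7244 CPM in IFN day 14, 2085 and 2420 CPM in IFN day 21, 21084 and 1103 CPM in control day 0, 8633 and 99.3 CPM in control day 14, and 5917 and 148 CPM in control day 21. It was higher in replicate 1 of every control pair and higher at IFN day 14 than at IFN day 0, and its part in the members' values was not tested. Replicates of the control arm spread more than those of the IFN arm: the median SD of the members' log2 CPM was 0.03, 0.03 and 0.04 in IFN at days 0, 14 and 21, and 0.26, 0.13 and 1.85 in control.

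The promoters of 29 of the 33 members matched the RefSeq table of mouse promoters (build GRCm38.p6). The ER stress response element, CCAAT and CCACG separated by 9 bases and bound by NF-Y together with ATF6 or XBP1, was searched on both strands of the 250 bases before each start site. It was found in 9 of the 29 member promoters (31%), against 37 of all 32851 promoters in the table (0.113%). Of the 10 ATF6 targets with a promoter in the table, 6 carried it. Of the 7 promoters of ATF4 and CHOP targets, 0 did. Its CCACG part alone was present in 69% of member promoters and 28.3% of all promoters, a count that includes the full elements. A second element, TGATGNAAN, bound by ATF4 with C/EBP partners, was found in 4 member promoters (13.8%, against 3.44% of all), those of Chac1, Asns, Nupr1 and Herpud1. The XBP1-preferred element TGACGTGG was in 0 of the 29 windows and in 0.563% of all promoters. These are matches of letters, and no binding was measured. The classes were assigned from general knowledge of the pathway and the elements are those known for it. The shares are therefore a description and not a test.

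The stretches below show the elements of members on which the values turn, each read 5′ to 3′ on the strand of the gene, with the elements in capitals. An element on the opposite strand appears as CGTGG followed at 9 bases by ATTGG, or as the reverse complement of TGATGNAAN. Hsp90b1 carried the ER stress element in both directions, and Derl3 is shown because it carried one yet was hardly detected.
Hspa5 (chr2:34771979-34772089, plus strand): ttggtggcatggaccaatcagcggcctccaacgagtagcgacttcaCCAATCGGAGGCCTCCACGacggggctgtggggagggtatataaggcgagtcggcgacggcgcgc
Hsp90b1 (chr10:86705523-86705666, minus strand): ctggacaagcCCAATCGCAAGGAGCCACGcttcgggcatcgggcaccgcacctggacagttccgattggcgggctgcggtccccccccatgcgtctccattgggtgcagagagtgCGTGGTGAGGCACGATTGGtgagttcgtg
Creld2 (chr15:88819500-88819558, plus strand): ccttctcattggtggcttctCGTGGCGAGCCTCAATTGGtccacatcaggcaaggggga
Pdia6 (chr12:17266471-17266529, plus strand): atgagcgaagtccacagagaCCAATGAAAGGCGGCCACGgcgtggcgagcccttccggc
Dnajc3 (chr14:118937807-118937865, plus strand): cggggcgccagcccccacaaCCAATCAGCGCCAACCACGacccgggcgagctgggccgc
Derl3 (chr10:75893222-75893280, plus strand): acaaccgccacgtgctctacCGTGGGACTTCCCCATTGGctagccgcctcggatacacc
Chac1 (chr2:119351028-119351076, plus strand): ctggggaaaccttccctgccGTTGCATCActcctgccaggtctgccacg
Asns (chr6:7693210-7693252, minus strand): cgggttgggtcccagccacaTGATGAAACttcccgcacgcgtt
Nupr1 (chr7:126625553-126625601, minus strand): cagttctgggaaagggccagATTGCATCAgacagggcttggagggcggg

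In control day 21 replicate 2 the ER chaperones stood far above every other library. The 33 members took 6.22% of all counts there, against 0.672% to 1.13% in the other 11 libraries. Of the 33, 26 were at least 2-fold above the highest of the other 11 libraries, and 17 were at least 4-fold above it. Among all 17289 genes tested, 3.76% were at least 2-fold above, and 129 genes were at least 4-fold above. Set against control day 21 replicate 1 alone, 28 members were at least 2-fold higher, with a background of 15.2%. This is 1 library with no replicate of its own, so no test applies and the ratios are a description of that library. Scaling by library size alone left 20 members at least 2-fold above the highest of the others, and the share of all genes was not counted there.

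The ATF6 targets led, all 12 of them at least 4-fold above the highest other library, with a median ratio of 8.51. Hspa5, which encodes BiP, the main ER chaperone of the HSP70 family (mm10 chromosome 2, 34771970 to 34777547), was at 25678 CPM in control day 21 replicate 2. In the other 11 libraries it ran from 563 to 1828 CPM with a median of 959, so the library lay 14.04-fold above the highest of them. Creld2, a secreted disulfide isomerase (chromosome 15, 88819646 to 88826683), was at 1517 CPM, against 37.8 to 94.5 CPM with a median of 67.9 elsewhere, the highest ratio among the members at 16.05. Neither gene's value in that library came near the range of the other 11.

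Pdia4, an ER protein disulfide isomerase, was at 4814 CPM in control day 21 replicate 2, against 149.7 to 344 CPM with a median of 231 in the others, a ratio of 13.997. Hsp90b1, the ER member of the HSP90 family (GRP94), was at 12239 CPM, against 529 to 1027 CPM with a median of 739.8, a ratio of 11.9. Manf, a secreted factor that binds BiP, stood 10.6-fold above the highest other library. The other ATF6 targets followed with ratios of 8.95 for Sdf2l1, a cofactor of BiP, 8.06 for Hyou1, an exchange factor and chaperone of BiP, and 7.56 for Herpud1, a scaffold of ER-associated degradation. Calr, a lectin chaperone that also buffers calcium, was 5.76-fold above and Pdia6, another isomerase, 5.49-fold. The ratios were 4.87 for Syvn1 (HRD1), the ubiquitin ligase of ER-associated degradation, and 4.40 for its adaptor Sel1l. Exons of Hsp90b1, Manf, Pdia4, Pdia6 and Syvn1 overlap those of other annotated genes, and the use of strand in counting is not given in the sources used here, so their counts may hold reads of those neighbours.

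XBP1 targets were split. Dnajb9, a J-protein that recruits BiP to IRE1, was at 472 CPM in control day 21 replicate 2, against 26.0 to 52.3 CPM with a median of 38.2 in the others, a ratio of 9.03. Dnajc3 (p58IPK), which restrains eIF2 alpha kinases, was at 1081 CPM, against 105.7 to 163 CPM with a median of 142, a ratio of 6.65. Dnajb11, a J-protein partner of BiP, reached 3.52. Derl1, a channel protein of ER-associated degradation, and Edem1, a lectin that selects glycoproteins for it, reached 2.38 and 2.22. Sec61b, a subunit of the translocation channel, was 1.86-fold above. Derl3 had between 0 and 16 counts in every library, and 7 in control day 21 replicate 2, so its ratio is not informative.

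Among ATF4 and CHOP targets, 4 of 7 were at least 2-fold above the highest other library. Ddit3, which encodes the transcription factor CHOP (chromosome 10, 127290774 to 127296288), was at 1458 CPM in control day 21 replicate 2, against 62.6 to 358 CPM with a median of 152 elsewhere. That is 4.08-fold above the highest other library, an IFN day 14 library, and 15.5-fold above control day 21 replicate 1. Ppp1r15a (GADD34), the phosphatase subunit that reverses eIF2 alpha phosphorylation, had a ratio of 4.10 to the highest. Chac1, which degrades glutathione (chromosome 2, 119351229 to 119354381), was at 246 CPM, against 15.6 to 73.4 CPM with a median of 32.7, a ratio of 3.36 to the highest and of 15.8 to control day 21 replicate 1. Trib3, a pseudokinase that binds ATF4, had a ratio of 2.22. Asns, which makes asparagine, was 1.78-fold above, Sesn2, a regulator of mTORC1, 1.16-fold, and Nupr1, a stress-induced chromatin protein, 1.07-fold. A second annotated Ddit3 entry and the gene Mars overlap Ddit3, so its counts share that uncertainty.

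Sensors and factors had a median ratio of 2.08 to the highest other library. Ern1 was at 203 CPM in control day 21 replicate 2, against 57.3 to 252 CPM in the others, inside their range. Eif2ak3 was at 47.9 CPM, level with the highest of the others (ratio 0.999). Atf6 reached 2.23-fold, Xbp1 2.66-fold and Atf4 2.08-fold above the highest other library. Counts per gene do not show whether Xbp1 mRNA was spliced. Both lectin-cycle chaperones were higher too, Pdia3, the isomerase that works with calnexin and calreticulin, by 4.51-fold and Canx, calnexin itself, by 2.50-fold.

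**Figure D1:**
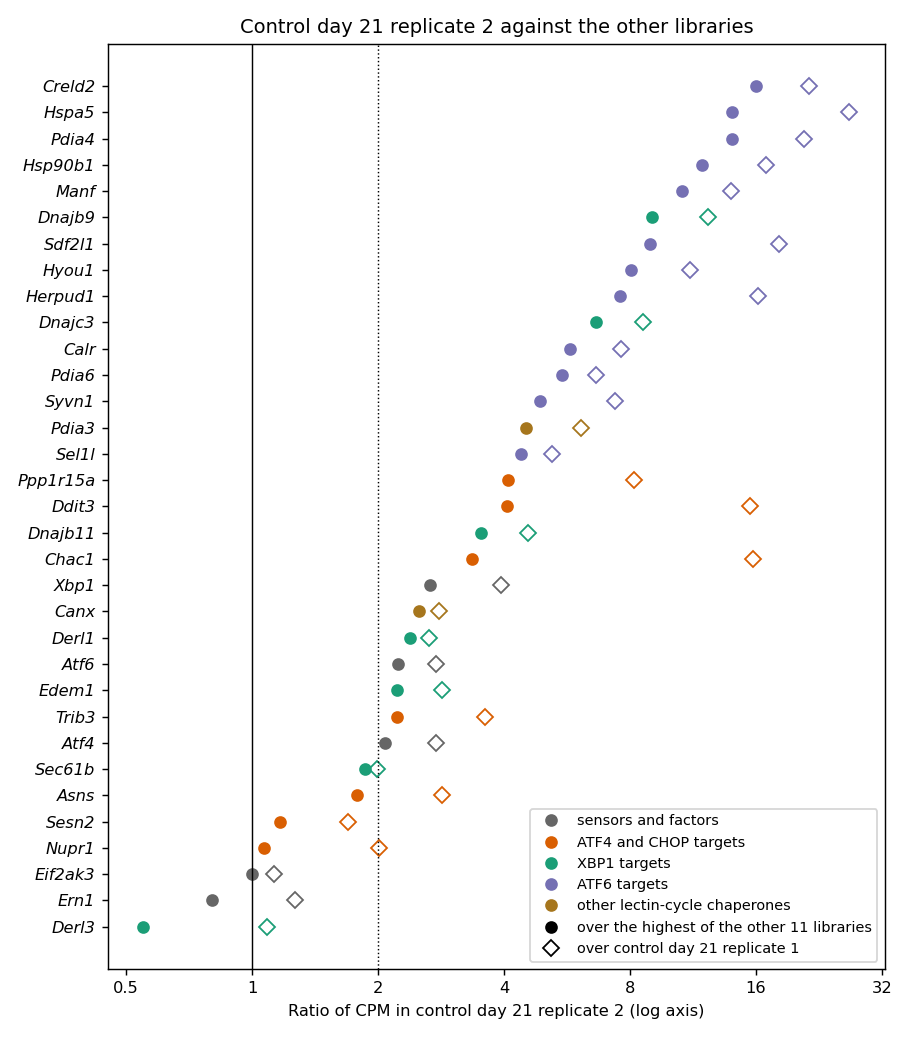
Ratio of CPM in control day 21 replicate 2 to the highest of the other 11 libraries (filled circles) and to control day 21 replicate 1 (open diamonds) for each of the 33 genes, on a log axis, coloured by class. The 12 ATF6 targets sit between 4.40 and 16.05 on the filled scale, while Ern1, Eif2ak3 and Derl3 lie at or below 1.

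Of the 35 genes with the ER stress element in their promoter, 19 matched a measured gene by symbol. Among the 9 members with it, 8 were at least 2-fold above the highest other library, Derl3 being the other. Members searched without finding it had ratios from 0.804 for Ern1 to 13.997 for Pdia4, so high members occurred on both sides. Among the 10 matched genes that are not members, 2 were at least 2-fold above (Hnrnpa3 and Zfp57), and the median ratio of the 10 was 0.936. Hnrnpa3 and Zfp57 were named after their values were seen. Ero1b also carries the element but did not match by symbol, so these counts leave it out. Under its older symbol, Ero1lb, it was at 49.4 CPM in control day 21 replicate 2, against 8.14 to 14.6 CPM in the others, a ratio of 3.37.

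Other stress genes stood high in the same library. The 13 heat shock genes examined are cytosolic except for Hspd1 and Hspe1, which are mitochondrial. Of these 13, 11 were at least 2-fold above the highest other library, with ratios of 47.8 for Hspa1b, 17.2 for Dnajb1 and 16.7 for Hspa1a. For Hspa1a, Hspa1b and Hspb1 that highest other library was control day 21 replicate 1, at 21.2, 135 and 88.4 CPM. The rest of the list was not highest there, and the list's median log2 ratio in that replicate was 0. Of 27 further genes of the ATF4 network, 8 were, led by Fgf21 (39.3), Atf3 (20.1) and Gdf15 (4.99). Of 45 further genes of ER folding, translocation and degradation, 10 were, and the highest ratio was 3.65, for Selenos. Of 20 other stress transducers, 1 was, Creb3l2 at 2.01, and of 12 hypoxia and glycolysis genes 0 were. The late osteoblast gene Bglap was at 6.89 CPM there, against 0.292 to 1.41 CPM in the others. The osteoblast list of 8 genes that holds Bglap did not rise as a whole. It summed to 14644 CPM there and to 24727 CPM in control day 21 replicate 1. Bglap, Alpl and Runx2 were higher than in that replicate, while Col1a1, Col1a2, Sparc, Sp7 and Ibsp were lower. The scaling factor of the library was 0.809, against 0.975 to 1.04 in the others. The part these differences have in the members' values was not tested.

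**Figure D2:**
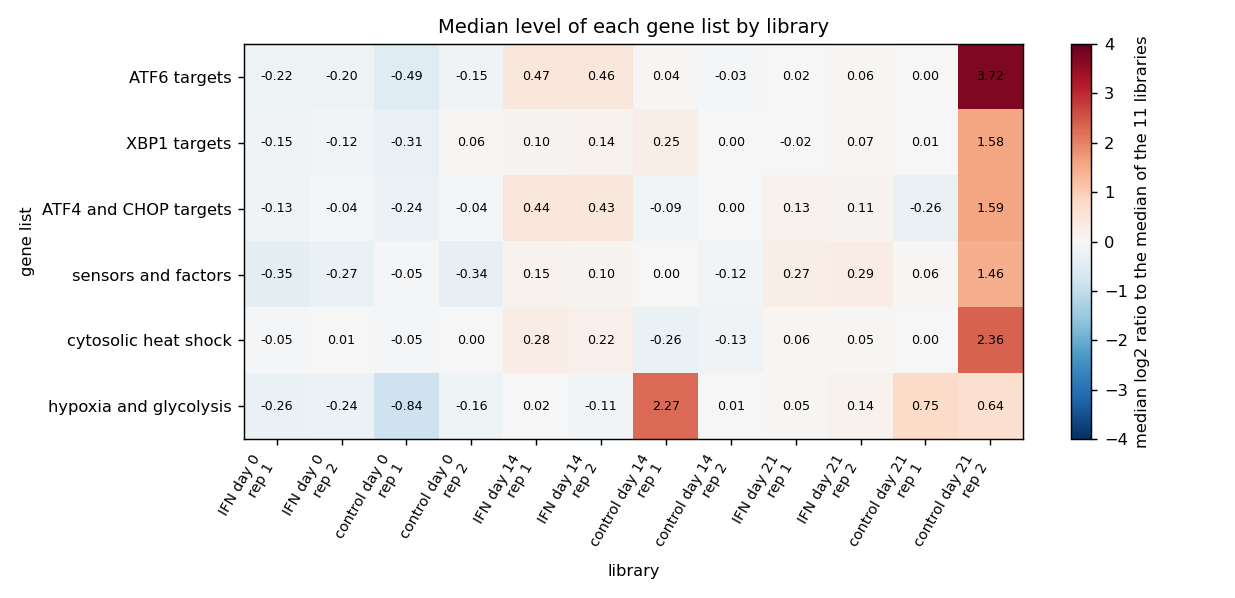
Median over each gene list of the log2 ratio to the median of the 11 libraries, for every library (columns, IFN left of control at each day). ATF6 targets reach 3.72 in control day 21 replicate 2 and 0.46 to 0.47 in the IFN day 14 libraries, and hypoxia and glycolysis genes reach 2.27 in control day 14 replicate 1. The list labelled cytosolic heat shock also holds the mitochondrial Hspd1 and Hspe1.

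In the other 11 libraries the range of each member was taken as its highest level over its lowest. This ratio had a median of 1.94 over the 33 members, against 2.41 over all genes tested. The 2 sets were not matched for level, and the ratio can be large at few counts, as for Derl3 (9.79). ATF4 and CHOP targets had the widest class median at 2.52, ATF6 targets had 2.05, and XBP1 targets had 1.67. Ddit3 varied most among members with more than 1 CPM, by 5.70-fold, followed by Chac1 at 4.70 and Ern1 at 4.40. For 20 members the highest of the 11 libraries was one of the IFN day 14 pair, and the share of all genes for which this holds was not counted.

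IFN against control at day 14 was the comparison of treatment in which members passed the test. In the fit of 11 libraries by edgeR's quasi-likelihood test, 6 of the 33 members rose with IFN and 0 fell, with adjusted p below 0.05 over 18530 genes. Over all genes 6.46% were called, 2.88% as higher and 3.58% as lower. The median log2 fold change was 0.30 over the members and -0.02 over all genes. Both IFN libraries lay above both control libraries for 27 members and below them for 2, against 28.6% and 27.1% of all genes.

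Ern1, the kinase and ribonuclease that splices Xbp1 mRNA (chromosome 11, 106394650 to 106487852), was at 167 and 172 CPM with IFN, against 91.6 and 92.4 CPM in control. The groups were apart by far more than their replicates, with a log2 fold change of 0.87 ± 0.18 (SE, edgeR adjusted p = 0.0174). Among the other sensors and factors, Atf4 was at 526 and 496 CPM with IFN against 397 and 366 CPM without it, a log2 fold change of 0.41 ± 0.15 (adjusted p = 0.140). Xbp1 was at 104 and 109 CPM with IFN and at 149 and 95.004 CPM in control, so the groups overlapped, and its log2 fold change was -0.21 ± 0.20 (adjusted p = 0.605). Eif2ak3 had a log2 fold change of -0.49 (adjusted p = 0.0818).

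Of the 7 ATF4 and CHOP targets, 2 rose, and the remaining 5 had positive fold changes that did not pass. Ddit3 was at 358 and 338 CPM with IFN, against 158 and 152 CPM in control. Both IFN libraries were more than 2-fold above both control libraries, with a log2 fold change of 1.15 ± 0.26 (adjusted p = 0.0289). Asns was at 350.1 and 354 CPM with IFN, against 211 and 244 CPM in control (log2 0.61 ± 0.11, adjusted p = 0.0103). Both IFN day 0 libraries (322 and 332 CPM) and both control day 0 libraries (311 and 328 CPM) were near the IFN day 14 level, and control day 21 replicate 1 (225 CPM) was low like the control day 14 pair.

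Of the 12 ATF6 targets, 3 rose and all 12 had positive fold changes, with a median of 0.41. Hspa5 was at 1797 and 1828 CPM with IFN, against 1143 and 884 CPM in control. The control replicates differed from each other, yet both lay below both IFN libraries (log2 0.82 ± 0.19, adjusted p = 0.0330). Sdf2l1 was at 28.1 and 29.2 CPM with IFN, against 16.4 and 15.5 CPM in control (log2 0.83 ± 0.20, adjusted p = 0.0354). Hyou1 was at 272 and 288 CPM with IFN, against 204 and 179 CPM in control (log2 0.54 ± 0.13, adjusted p = 0.0374). Pdia4 missed the limit with a log2 of 0.46 (adjusted p = 0.0505). Of the 7 XBP1 targets 0 passed, with 4 positive fold changes and a median of 0.06. The 2 lectin-cycle chaperones did not pass either, with log2 fold changes of 0.30 for Pdia3 and 0.19 for Canx.

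These calls are narrow in support. With all 12 libraries in the fit, 0 of the 33 members were called (2.29% of all genes), while the fold changes stayed near those above, at 0.84 for Hspa5 and 1.17 for Ddit3, with adjusted p of 0.761 and 0.595. Between 0 and 18 members were called as each library was left out in turn, 0 without IFN day 14 replicate 1 or replicate 2 (1.32% and 1.35% of all genes called), 2 without any one of the IFN day 0 or IFN day 21 libraries (3.76% to 3.91%), and 18 without control day 0 replicate 1 or replicate 2 (15% in each). DESeq2 called 11 (11% of all genes), the fit with no filter 13 (6.28%), the fit of only the groups compared 3 (4.27%), and limma voom on all 12 libraries 2 (9.53%).

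Genes of other lists passed at the same day. Of 27 further ATF4 network genes, 9 rose with IFN and 0 fell, the smallest adjusted p being those of Wars, a tryptophan-tRNA ligase also induced by interferon (log2 0.75, adjusted p = 0.00355), Slc7a11, the cystine transporter (log2 1.45, adjusted p = 0.00443), and its partner Slc3a2 (log2 0.88, adjusted p = 0.00788). Of 45 further ER folding and degradation genes 0 were called, and the median was -0.11. Of these 45, 9 had an unadjusted edgeR p under 0.05, beside 3888 of all 18530 genes. Of 20 other transducers 1 rose, Eif2ak2, the double-stranded RNA kinase that is itself an interferon-induced gene (log2 1.89, adjusted p = 0.000125). Of 13 heat shock genes 4 rose, Hsph1 (1.004), Hsp90aa1 (0.71), Dnaja1 (0.61) and the mitochondrial Hspe1 (0.49). The hypoxia and glycolysis list had a median of -1.44, and control day 14 replicate 1 was the library with the highest level of that list. The osteoblast list, most of it collagen, summed to 5993 and 5844 CPM with IFN and to 20324 and 15127 CPM in control. In bulk RNA, fewer cells of a type and less RNA per cell cannot be told apart. The part of these lists in the members' values was not tested.

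**Figure D3:**
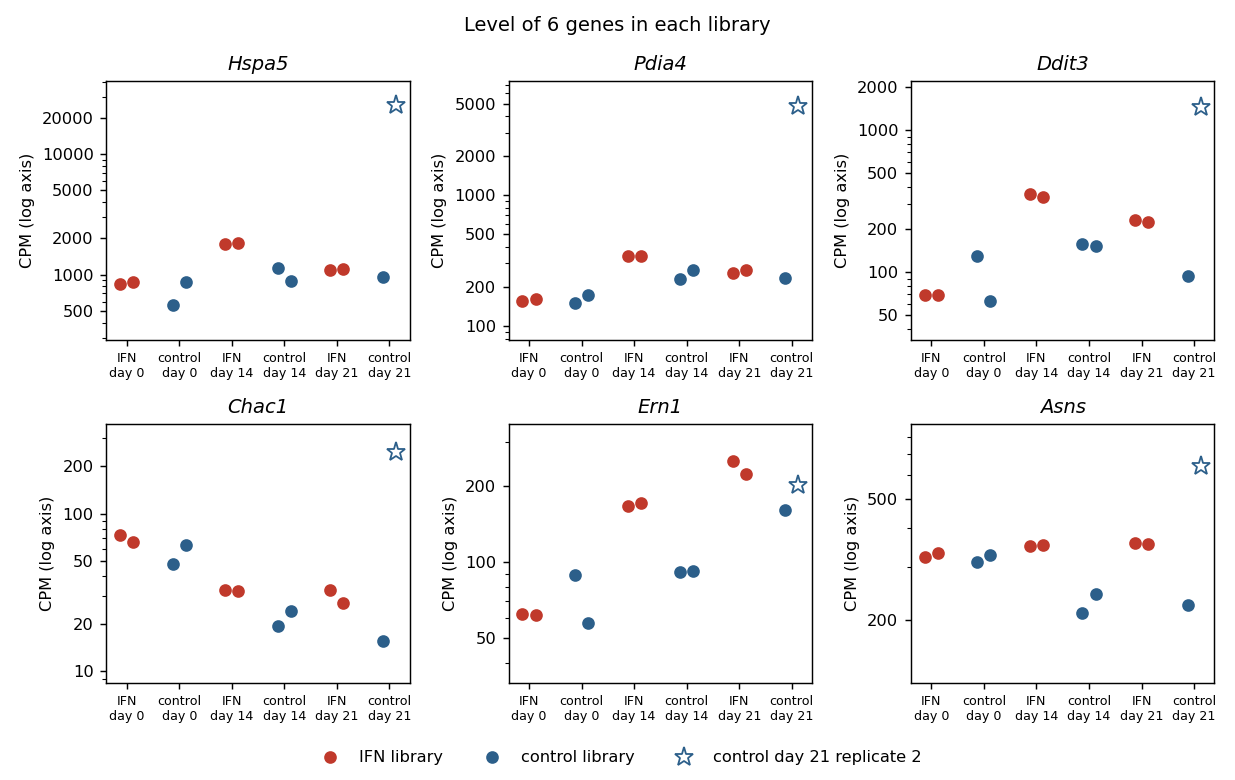
CPM on a log axis in each library for Hspa5, Pdia4, Ddit3, Chac1, Ern1 and Asns, with IFN left of control at each day and control day 21 replicate 2 as an open star. The star is the highest point for each gene except Ern1, and the IFN day 14 libraries lie above the control day 14 libraries in all 6 panels.

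IFN against control at day 21 depended on which control libraries were used. With control day 21 replicate 1 alone, assumed to vary like the other groups, edgeR called 0 of the 33 members (0.961% of all genes), and DESeq2 called 4. Without control day 0 replicate 1 or replicate 2 edgeR called 5 (4.73% and 4.77% of all genes), without control day 14 replicate 1 or replicate 2 it called 3 (2.41% and 2.47%), and with only the groups compared 13 of the 32 members tested (23.5%). The median was 0.06. The ATF4 and CHOP targets had the largest class median, 0.79, with 6 of 7 positive. Ddit3 was at 233 and 226 CPM with IFN and at 93.9 CPM in control replicate 1 (log2 1.28 ± 0.33, adjusted p = 0.148). Chac1 was at 32.997 and 27.0 CPM with IFN and at 15.6 CPM in that control library (log2 0.94 ± 0.23, adjusted p = 0.111). Both genes were higher in both IFN libraries than in that control, without passing.

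Hspa5 was at 1095 and 1113 CPM with IFN and at 959 CPM in control replicate 1 (log2 0.19 ± 0.24, adjusted p = 0.810). Xbp1 was at 86.9 and 87.3 CPM with IFN and at 100.4 CPM in control replicate 1 (log2 -0.22, adjusted p = 0.792), and Atf4 had a log2 of 0.27 (adjusted p = 0.611). With both control libraries the direction turned: the median over the members was -1.76, 31 of 33 fold changes were negative, and Hspa5 had a log2 of -3.59 ± 1.01 (adjusted p = 0.178). In that fit edgeR called 0 members (0.995% of all genes), and 23 had an unadjusted p under 0.05, beside 2272 of all 17289 genes. Limma voom with library weights called 0 members (0.711% of all genes).

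At day 0, edgeR called 0 of the 33 members between IFN and control (0.0054% of all genes). DESeq2 and limma voom with library weights on all 12 libraries each called 0. An unadjusted edgeR p under 0.05 was found for 1 member, beside 979 of all 18530 genes. That 1 member was Derl3, with 0 and 3 counts with IFN and 14 and 15 in control. The IFN day 0 libraries were close to each other, at 843 and 865 CPM for Hspa5 and 68.8 and 68.4 CPM for Ddit3. Control day 0 replicate 1 and replicate 2 were at 563 and 877 CPM for Hspa5 and at 129 and 62.6 CPM for Ddit3, on either side of the IFN pair. Without control day 0 replicate 2, 12 members were called, 5 higher and 7 lower, beside 17.6% of all genes.

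Over time, more members were called between day 0 and day 14 in the IFN arm than in any other comparison made here. There 20 of the 33 rose and 2 fell, with 20.9% of all genes called, 10.6% higher and 10.3% lower. The median was 0.66 over the members and 0.02 over all genes. Of 12 ATF6 targets 10 rose, of 5 sensors and factors 3 rose and 1 fell, of 7 ATF4 and CHOP targets 3 rose and 1 fell, of 7 XBP1 targets 2 rose, and both lectin-cycle chaperones rose.

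Ddit3 had the largest change, at 358 and 338 CPM at day 14 against 68.8 and 68.4 CPM at day 0, a 5.08-fold rise (log2 2.34 ± 0.27, edgeR adjusted p = 0.000375). Ern1 was at 167 and 172 CPM at day 14, against 62.1 and 61.7 CPM at day 0 (log2 1.46 ± 0.18, adjusted p = 0.000444). Pdia4 was at 342 and 344 CPM at day 14, against 155 and 159 CPM at day 0 (log2 1.13 ± 0.12, adjusted p = 0.000188). Replicates of all 3 genes agreed closely beside these differences.

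Creld2 rose by 1.04 on the log2 scale, Manf by 0.91, Pdia3 by 0.75, Calr by 0.75, Atf6 by 0.65 and Dnajb11 by 0.64. Hspa5 was at 1797 and 1828 CPM at day 14, against 843 and 865 CPM at day 0 (log2 1.09 ± 0.20, adjusted p = 0.00353). Atf4 rose by 0.68 (adjusted p = 0.00950), and Xbp1 had a log2 of -0.08 (adjusted p = 0.839). Chac1 went the other way from the other ATF4 and CHOP targets that were called, at 32.7 and 32.4 CPM at day 14 against 73.4 and 66.0 CPM at day 0 (log2 -1.10 ± 0.18, adjusted p = 0.00190). Eif2ak3, named after its values were seen, was at 29.1 and 27.5 CPM at day 14, against 43.9 and 46.7 CPM at day 0 (log2 -0.68 ± 0.15, adjusted p = 0.00932).

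With all 12 libraries in the fit, 2 members were called in this comparison, Ern1 higher and Eif2ak3 lower, with 10.7% of all genes called and a median of 0.66 over the members. Between 13 and 23 were called as each library was left out, 13 without IFN day 0 replicate 1 (8.67% of all genes) and 14 without IFN day 0 replicate 2 (8.26%). Limma voom with library weights on all 12 libraries called 19 members, beside 50.5% of all genes. The fit of only the groups compared called 30 of the 32 members it tested, beside 58.7%. Of 27 further ATF4 network genes 5 rose and 3 fell, among them Wars (log2 1.16), Cebpb, a C/EBP transcription factor (1.595), and Slc3a2 (1.04). Of 45 further ER genes 6 rose and 3 fell, with a median of 0.03, those with the smallest adjusted p being Ube2g2 (0.82), a ubiquitin-conjugating enzyme, Nploc4 (0.63), a cofactor of the segregase VCP, and Uggt1 (-0.58), the folding sensor of glycoproteins. Of 20 other transducers 3 rose and 4 fell.

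In the control arm, day 14 against day 0 gave 5 higher and 3 lower members (8.35% of all genes called, 4.28% higher and 4.07% lower), with a median of 0.26. Pdia4 was at 230.1 and 266 CPM at day 14, against 149.7 and 172 CPM at day 0 (log2 0.64 ± 0.12, edgeR adjusted p = 0.0107). Trib3 was at 134 and 129 CPM at day 14, against 54.1 and 83.6 CPM at day 0 (log2 0.94 ± 0.17, adjusted p = 0.00965). In both genes the day 14 pair lay above the day 0 pair. Hsp90b1, Creld2 and Pdia6 rose by 0.65, 0.60 and 0.60.

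Chac1 fell to 19.3 and 24.3 CPM at day 14, against 47.7 and 63.0 CPM at day 0 (log2 -1.33 ± 0.18, adjusted p = 0.00195). Herpud1 was at 100.7 and 89.6 CPM at day 14, against 169 and 128 CPM at day 0 (log2 -0.63, adjusted p = 0.0228). Asns fell by 0.48 (adjusted p = 0.0288). Hspa5 (log2 0.51, adjusted p = 0.143), Ddit3 (0.71, adjusted p = 0.127), Xbp1 (0.19, adjusted p = 0.615) and Atf4 (0.05, adjusted p = 0.871) did not pass. With all 12 libraries 0 members were called, with 2.38% of all genes called, and between 4 and 15 as each library was left out, 15 without control day 0 replicate 2 (21.1% of all genes) and 4 without any one of the IFN libraries (4.88% to 5.16%). The fit of only the groups compared called 0 (0.685% of all genes). Of the further ATF4 network genes, 2 rose and 7 fell, led by Psat1 (-1.28), Gdf15 (-0.88) and Atf5 (-0.73). Of 45 further ER folding, translocation and degradation genes, 3 rose and 0 fell, Ube2g2 (0.83), Os9 (0.70), a lectin of ER-associated degradation, and Spcs3 (0.60), a subunit of the signal peptidase, with 38 of 45 positive and a median of 0.22. Of 20 other transducers 1 rose, Wfs1 (0.51), and of 13 heat shock genes 1 fell, Hspa1b (-1.22).

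The change from day 0 to day 14 in the IFN arm minus that in the control arm tests whether the arms differed in their course. By edgeR 0 of the 33 members were called (1.86% of all genes). An unadjusted edgeR p under 0.05 was found for 14 members, beside 3289 of all 18530 genes. DESeq2 called 4 members (6.75% of all genes) and limma voom with library weights on all 12 libraries called 1 (3.35%). Ern1 had a difference of 1.11 ± 0.25 (log2, adjusted p = 0.0538) and Ddit3 one of 1.64 ± 0.36 (adjusted p = 0.0561). Hspa5 had a difference of 0.58 ± 0.27 (adjusted p = 0.303), Atf4 of 0.62 ± 0.21 (adjusted p = 0.163) and Xbp1 of -0.27 ± 0.29 (adjusted p = 0.666). The median was 0.37 over the members and -0.01 over all genes, and 11 of 12 ATF6 targets had positive differences. Among the wider lists, Slc7a11 (1.67), Wars (0.79), Slc3a2 (1.03) and Eif2ak2 (1.85) passed, as did 1 of 13 heat shock genes, Hsph1 (1.05). Leaving out control day 0 replicate 2 gave 14 called members (20.7% of all genes), control day 0 replicate 1 gave 5 (3.27%), control day 14 replicate 2 gave 5 (6.61%) and control day 14 replicate 1 gave 1 (2.31%).

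**Figure D4:**
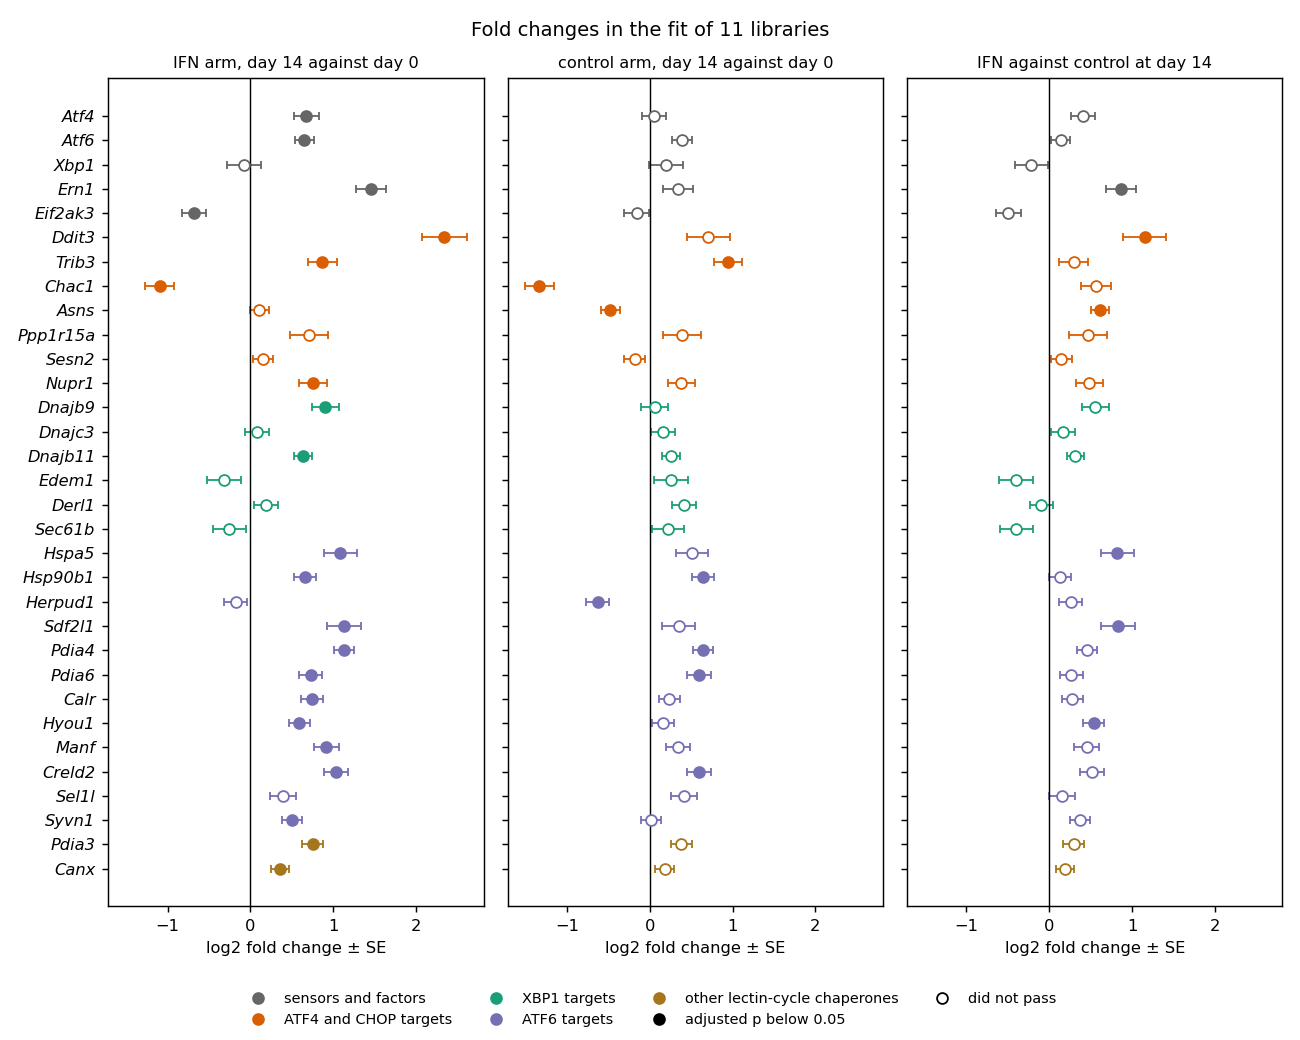
Log2 fold change ± SE for 32 members in the fit of 11 libraries, for day 14 against day 0 in the IFN arm (left) and in the control arm (middle), and for IFN against control at day 14 (right). Filled points passed an adjusted p of 0.05, and Derl3, with at most 16 counts in a library, is left out. In the left panel Ddit3 lies at 2.34 and Chac1 at -1.10.

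From day 14 to day 21 in the IFN arm, ATF6 targets had negative fold changes, though 1 member alone was called (0.54% of all genes, 0.0809% as lower). Sdf2l1 was at 11.2 and 14.7 CPM at day 21, against 28.1 and 29.2 CPM at day 14 (log2 -1.15 ± 0.20, edgeR adjusted p = 0.0401). Hspa5 was at 1095 and 1113 CPM at day 21, against 1797 and 1828 CPM at day 14 (log2 -0.72 ± 0.19, adjusted p = 0.167). All 12 ATF6 targets had negative fold changes, with a median of -0.44 against 0.00 over all genes. In the edgeR fit 17 members had an unadjusted p under 0.05, beside 2255 of all 18530 genes. With all 12 libraries 0 members were called. Without any one of the 6 IFN libraries 0 were called, while without control day 0 replicate 1 or replicate 2 it was 14 (4.03% and 4.06% of all genes), without control day 14 replicate 1 it was 3 and without control day 14 replicate 2 it was 2 (2.33% in each). The fit of only the groups compared called 24 of the 32 members it tested, 20 lower and 4 higher, beside 28.9% of all genes. Ddit3 had a log2 of -0.60 (adjusted p = 0.380), Xbp1 of -0.29 (adjusted p = 0.618) and Atf4 of -0.08 (adjusted p = 0.876). Ern1 was at 252 and 225 CPM at day 21 and 167 and 172 CPM at day 14, higher in both day 21 libraries without passing (log2 0.49 ± 0.18, adjusted p = 0.290).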

How the data were processed

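The submitters' processing notes name HISAT2, SAMtools, featureCounts and mm10, and give no version. What the authors deposited is 1 table with a raw count for every gene in every library, per the file headers and the whole-number values. The annotation and the use of strand are not given in the sources used here. Gene positions come from the GENCODE annotation of mm10 and promoters from RefSeq, so their start sites can differ. The stretches printed for Hspa5, Asns and Nupr1 lie before the RefSeq start but inside the GENCODE interval.

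The fit by edgeR 4.0.16 (R 4.3.3) took 11 libraries and left out control day 21 replicate 2. It used filterByExpr, TMM scaling, a mean for each group and the robust quasi-likelihood test (5 residual degrees of freedom), with Benjamini-Hochberg adjustment over 18530 genes. CPM values used TMM factors of all 12 libraries, and ratios to other libraries a prior count of 2. Alternatives were all 12 libraries, RLE or library-size scaling, DESeq2 1.42.0, other filters, only the groups compared, a replicate block, limma 3.58.1 voom with library weights, and each library left out. The procedure was tested on simulated counts in which each gene had the same spread in all libraries. Control replicates spread more than IFN replicates here, and that test does not cover this difference.

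The members, classes and wider lists were chosen with earlier results of these data known. Beside a test, called members are named, at most 10 by smallest adjusted p, with Hspa5, Ddit3, Xbp1 and Atf4 always, and at most 3 called genes of each wider list.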

Additional observations from a re-analysis of the deposited data

Results flagged for a closer look

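In control day 21 replicate 2, 26 of the 33 members were at least 2-fold above the highest of the other 11 libraries, and Hspa5 was 14.04-fold above it. Both are flagged because that library enters none of the fits on which the comparisons rest. Control day 21 replicate 1 did not share the pattern in the members, and the labels give no difference between these libraries beyond the replicate number. Of the other 11 libraries, though, it had the highest Hspa1a, Hspa1b and Hspb1.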

How the results depend on the processing

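The values here are numbers of the 33 members called, with the share of all genes called in brackets. With IFN against control at day 14, 6 were called (6.46%), and 0 with all 12 libraries (2.29%), 11 with DESeq2 (11%), 13 with no filter (6.28%), 3 with only the groups compared (4.27%) and 2 with limma voom on all 12 libraries (9.53%). At day 21, where 0 were called (0.961%), DESeq2 gave 4 (3.21%), no filter 5 (1.94%), a filter of 1 CPM in 2 libraries 1 (1.51%), and only the groups compared 13 of 32 (23.5%). For day 14 against day 0 in the IFN arm, 22 were called (20.9%), and 2 with all 12 libraries (10.7%). There, only the groups compared gave 30 of 32 (58.7%) and voom gave 19 (50.5%). For day 21 against day 14 in that arm, 1 was called (0.54%), and 0 with all 12 libraries (0%), 3 with DESeq2 (2.93%), 5 with no filter (2.23%), 24 of 32 with only the groups compared (28.9%) and 3 with voom (16%). For day 14 against day 0 in the control arm, 8 were called (8.35%), and 0 with all 12 libraries (2.38%), with only the groups compared (0.685%) and with voom (2.15%). For the difference between the arms, 0 were called (1.86%), and 4 with DESeq2 (6.75%), 4 with no filter (4.72%) and 1 with voom (3.35%). Leaving out each library in turn gave 0 to 12 at day 0, 0 to 18 at day 14, 0 to 5 at day 21, 13 to 23 for the IFN arm to day 14 and 0 to 14 from there to day 21, 4 to 15 for the control arm, and 0 to 14 for the difference. Leaving out control day 21 replicate 1 gives no value at day 21. RLE and library-size scaling kept each count within 1.5 times. The causes were not tested.

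Replicate numbers were not treated as pairs: over 15 pairs of groups the correlation of deviations over all genes ran from -0.05 to 0.11, with 2 over 0.1. Single genes can still differ by replicate number, as CT010467.1 did in every control pair. A replicate block gave 0, 4 and 0 members at days 0, 14 and 21 (0%, 5.22% and 0.729%), 22 and 0 in the IFN arm (19% and 0.237%), 8 in the control arm (6.72%) and 0 for the difference (1.4%).

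The 26 members at least 2-fold above in control day 21 replicate 2 became 17 at 4-fold, a limit that 129 of all 17289 genes passed. Of 996 refits of single-gene results, 819 kept direction and side of the limit, 129 no longer passed, 32 newly passed and 16 turned in sign. At day 21 with all 12 libraries, Hspa5 was at -3.59, Ddit3 at -1.76 and Atf4 at -0.63 (log2), and with voom at -2.12, -0.63 and -0.43. As libraries were left out, the day 0 log2 ranged from -0.0381 to 0.60 for Hspa5, -0.91 to 0.13 for Ddit3, -0.15 to 0.30 for Xbp1 and -0.42 to 0.0284 for Atf4, the sign turning without control day 0 replicate 1. Without control day 14 replicate 1 the sign of Xbp1 turned for IFN against control at day 14 (range -0.50 to 0.15) and for the difference between arms (-0.55 to 0.0975). In the control arm Xbp1 ranged from -0.17 to 0.48, at -0.0113 without control day 0 replicate 1 and -0.17 without the first control day 14 library, and Atf4 from -0.15 (without control day 0 replicate 2) to 0.30, at -0.0115 without that day 14 library. With 2 libraries a group, and 1 for control day 21, an uncalled member is not shown to be unchanged.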
